A study of Mus musculus with 4 samples.

Results

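Collagens are extracellular matrix proteins whose chains share a repeated glycine pattern and wind around each other into a triple helix. The genes described here are the 44 genes among 23997 in the deposited table whose symbol is Col, a number, the letter a and a further number, so each gene encodes 1 collagen chain. By the textbook class of their protein, 11 are fibrillar, 6 are type IV chains of basement membranes and 27 belong to other types. The populations compared were Lgr5+ progenitors and Lgr6+ progenitors from mouse cochleae at P3. They are EGFP+ cells sorted by flow cytometry from mice of the C57BL/6 strain that carry Lgr5-EGFP-IRES-creERT2 or Lgr6-EGFP-IRES-CreERT2, so EGFP from the receptor locus, and not a surface protein, decided which cells were collected. The comparison addresses which genes differ between these 2 kinds of hair cell progenitor. The labels list 4 libraries, 2 per population. The methods state that the fractions used as replicates came from the RNA extracted from 1 population of cells. They name more fractions per population than the 2 libraries listed, so the number behind each deposited value is not known.

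Fibrillar collagens build the banded fibrils of connective tissue and cartilage, type IV collagen builds the sheet-like network under epithelia and around vessels, and fibril-associated collagens (FACIT) sit on the surface of fibrils. In the cochlea, types II, IX and XI form much of the collagen of the tectorial membrane, the acellular gel that overlies the hair cells, and mutations in genes of these types cause hearing loss in humans. Mutations in type IV chains cause Alport syndrome, in which hearing loss accompanies kidney disease.

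The table gives 1 FPKM value (fragments per kilobase of transcript scaled to the number of mapped fragments) per gene and population, so no spread between libraries can be given, no difference has a replicate check and no test was made. Differences are given as log2(FPKM + 1) of Lgr6+ cells less that of Lgr5+ cells, called the log2 difference, which is positive for genes higher in Lgr6+ cells. Where a pair of FPKM values is given, Lgr5+ cells come first and Lgr6+ cells second. A gene was kept if either population reached an FPKM of 1 and called at 2-fold or more on this scale. Summed over all genes, FPKM came to 754163 for Lgr5+ and 627932 for Lgr6+ cells. The median log2 difference of the 13436 kept genes was 0.03 as deposited and 0.28 after scaling to the same total. The steps between low FPKM values correspond to 7778307 fragments for Lgr5+ and 24909677 for Lgr6+ cells if a step is 1 fragment, a ratio of 3.20. Whether a step is 1 fragment is not known, and the number of steps is given for some of the low levels below. *Lgr5* itself had FPKM values of 9.65 in Lgr5+ and 25.0 in Lgr6+ cells, *Lgr6* had FPKM values of 2.06 and 2.90, and *Sox2*, a supporting cell marker, had FPKM values of 139.6 and 54.8.

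Of the 44 collagen genes, 29 were kept and 3 (*Col10a1*, *Col17a1* and *Col6a6*) were listed at 0 in both populations. Among the kept ones, 13 were at least 2-fold higher in Lgr6+ cells, 1 was at least 2-fold higher in Lgr5+ cells and 15 lay within 2-fold. Over all kept genes, 18.2% were that much higher in Lgr6+ cells and 11.7% in Lgr5+ cells. In bulk RNA, fewer cells of a type and less RNA per cell cannot be told apart. The 13 genes include 7 that were kept only through their Lgr6+ value, since their FPKM was under 1 in Lgr5+ cells, and genes kept in this way tend to differ by how they were kept. Where both populations had to reach an FPKM of 1, 6 of 21 collagen genes were higher in Lgr6+ and 1 in Lgr5+ cells, against 10.9% and 9.76% of all genes. After scaling to the same total the numbers were 15 and 0 collagen genes, against 24.4% and 8.79% of kept genes. After quantile normalization they were 11 and 0, against 14.6% and 13.8%.

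**Figure D1:**
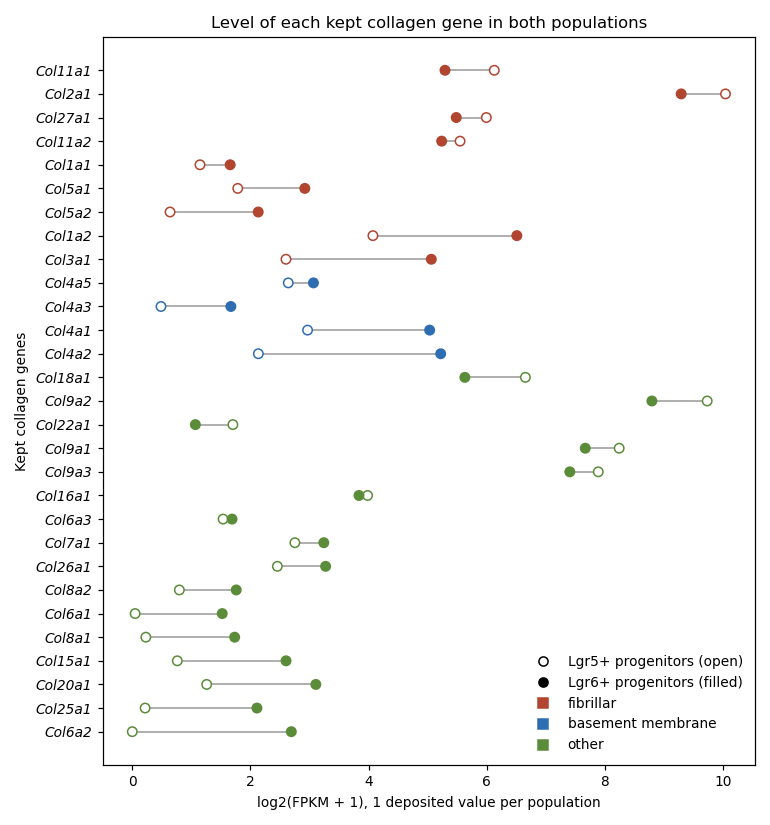
Level of the 29 kept collagen genes, by class, on the log2(FPKM + 1) axis, with open points for Lgr5+ and filled points for Lgr6+ cells and 1 deposited value per point. *Col2a1* and the 3 type IX genes lie furthest right in both populations and have their filled point to the left, whereas the type IV genes and *Col1a2* and *Col3a1* have it to the right.

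The collagen genes together made up 0.371% of all FPKM in Lgr5+ and 0.301% in Lgr6+ cells. The levels were very uneven. The 6 genes of types II, IX and XI held 91.5% of the collagen FPKM in Lgr5+ cells and 80.4% in Lgr6+ cells. Outside them, the other 38 genes summed to an FPKM of 239 in Lgr5+ and 371 in Lgr6+ cells. In Lgr5+ cells the order from the highest level was *Col2a1*, *Col9a2*, *Col9a1*, *Col9a3*, *Col18a1*, *Col11a1*, *Col27a1* and *Col11a2*. In Lgr6+ cells the first 4 genes were in this order too, and *Col1a2* came next, before *Col18a1*. Whether neighbours in these orders differ beyond the spread between libraries cannot be said from 1 value each.

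To let the regulatory sequence be seen beside these levels, the 250 bases before the RefSeq start (GRCm38.p6) are given for 2 genes that were higher in Lgr6+ cells, *Col1a2* and *Col3a1*, and for 2 cartilage-type genes that had the lower value there, *Col9a2* and *Col11a2*. They run from 5′ to 3′ on the plus strand, and capitals mark matches on either strand to TATAAA (the TATA box), CCAAT (the CCAAT box), GGGCGG (the GC box) and ACAATG (a SOX core), which do not overlap one another in these windows. The windows are chr6:4505368-4505617, chr1:45311288-45311537, chr4:121039316-121039565 and chr17:34038888-34039137, in the order of the lines.
Col1a2: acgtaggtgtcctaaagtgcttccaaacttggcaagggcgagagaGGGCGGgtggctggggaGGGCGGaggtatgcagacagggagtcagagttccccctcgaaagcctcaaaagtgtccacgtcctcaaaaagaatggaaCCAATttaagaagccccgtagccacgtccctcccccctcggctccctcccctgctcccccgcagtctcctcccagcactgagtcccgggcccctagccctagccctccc
Col3a1: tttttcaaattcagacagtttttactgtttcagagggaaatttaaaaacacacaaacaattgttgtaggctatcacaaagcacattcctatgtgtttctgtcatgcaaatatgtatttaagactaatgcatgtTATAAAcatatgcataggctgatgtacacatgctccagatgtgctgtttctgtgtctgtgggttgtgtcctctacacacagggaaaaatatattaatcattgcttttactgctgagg
Col9a2: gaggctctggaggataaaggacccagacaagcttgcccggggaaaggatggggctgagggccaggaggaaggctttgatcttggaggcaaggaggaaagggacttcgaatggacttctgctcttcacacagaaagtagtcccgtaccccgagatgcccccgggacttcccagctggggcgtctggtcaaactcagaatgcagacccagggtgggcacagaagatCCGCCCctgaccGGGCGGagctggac
Col11a2: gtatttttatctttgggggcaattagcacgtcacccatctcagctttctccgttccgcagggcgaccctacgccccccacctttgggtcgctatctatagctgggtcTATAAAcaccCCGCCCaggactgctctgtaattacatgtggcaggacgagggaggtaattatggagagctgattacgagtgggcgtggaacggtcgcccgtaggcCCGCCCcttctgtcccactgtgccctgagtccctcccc

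In these windows *Col1a2* holds 1 CCAAT box and 2 GC boxes, *Col3a1* holds 1 TATA box, *Col9a2* holds 2 GC boxes, and *Col11a2* holds 1 TATA box and 2 GC boxes. RefSeq windows were at hand for 35 of the 44 genes, as 38 windows. The GC box was in 22 of these 38 windows (57.9%), against 32.7% of 32851 windows of all genes. The CCAAT box was in 13 (34.2% against 33.8%), the TATA box in 5 (13.2% against 12.4%) and the SOX core in 1 (2.63% against 10.7%). These are matches of letters and describe the windows only.

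Among the fibrillar collagens, the genes of cartilage-type fibrils had the lower value in Lgr6+ cells and those of connective-tissue fibrils the higher value. Of the 11 genes, 9 were kept, 4 of them were at least 2-fold higher in Lgr6+ cells and none in Lgr5+ cells. Over all kept genes these shares were 18.2% and 11.7%. Of the 9 genes, 1 (*Col5a2*) was kept only through its Lgr6+ value. Where both populations had to reach an FPKM of 1, 3 of 8 were at least 2-fold higher in Lgr6+ cells, against 10.9% of all genes. The median log2 difference of the 9 kept genes was 0.51. This median was 0.10 for the 8 genes that reached an FPKM of 1 in both populations and -0.31 for the 7 that reached 5 in either, so its sign depends on which low genes are counted. *Col2a1*, the chain of type II collagen, is on chromosome 15 from 97975602 to 98004724. Its FPKM was 1055 in Lgr5+ cells, the rank of 136 among all genes, and 627 in Lgr6+ cells, the rank of 181. Its log2 difference was -0.75, within 2-fold.

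Type XI collagen forms the core of type II fibrils. *Col11a1* had FPKM values of 69.0 in Lgr5+ and 38.3 in Lgr6+ cells, a log2 difference of -0.83. *Col11a2* had FPKM values of 45.9 and 36.8, a log2 difference of -0.31. *Col27a1*, a fibrillar collagen of developing cartilage, had FPKM values of 62.8 and 43.8, a log2 difference of -0.51. With *Col2a1*, all 4 genes were lower in Lgr6+ cells by less than 2-fold, and they kept the sign under each scaling that was tried. After scaling to the same total, however, *Col11a2* was at -0.05, close to no difference.

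Type I collagen is the main fibrillar collagen of skin, bone and other connective tissue. *Col1a2*, which encodes its α2 chain, is on chromosome 6 from 4505697 to 4541543. Its FPKM was 15.8 in Lgr5+ cells and 90.2 in Lgr6+ cells, a log2 difference of 2.44 and a ratio of FPKM of 5.69. The partner gene *Col1a1*, on chromosome 11 from 94936270 to 94951856, had FPKM values of only 1.21 and 2.16, a log2 difference of 0.51, so it lay within 2-fold while *Col1a2* did not. The level of *Col1a2* was 13.1 times that of *Col1a1* in Lgr5+ cells and 41.9 times in Lgr6+ cells. In the type I molecule α1 chains usually outnumber α2 chains, so the measured order of the transcripts is the opposite of that of the chains. The GC content of the longest coding transcript was 58.9% for *Col1a1* and 55.7% for *Col1a2*, and its part in the levels was not tested.

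*Col3a1*, the chain of type III collagen of vessels and soft tissue, had FPKM values of 5.07 in Lgr5+ and 32.4 in Lgr6+ cells, a log2 difference of 2.46. It stood in nearly the same proportion to *Col1a2* in both, since *Col1a2* was 3.13 times *Col3a1* in Lgr5+ and 2.78 times in Lgr6+ cells. *Col5a1* and *Col5a2* encode type V chains, which start the assembly of type I fibrils. *Col5a1* had FPKM values of 2.45 and 6.58, a log2 difference of 1.14 that was 0.92, within 2-fold, after quantile normalization. *Col5a2* had FPKM values of 0.558 and 3.39, a log2 difference of 1.49, and its Lgr5+ value rests on about 27.9 steps.

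The remaining fibrillar genes were not kept. *Col5a3* and *Col24a1* were listed at 0 in Lgr5+ cells. In Lgr6+ cells *Col5a3* reached an FPKM of 0.0799 and *Col24a1* one of 0.830. As a sum, the 6 genes of types I, III and V, grouped in this way after their values were seen, reached an FPKM of 25.1 in Lgr5+ and 135 in Lgr6+ cells. The 4 genes of types II, XI and XXVII summed to an FPKM of 1233 and 746. Markers of otic mesenchyme and fibrocytes, which are cells that make types I and III collagen, had sums of FPKM of 66.4 and 451. *Otos* alone gave 5.60 and 248 of these sums. Of the 10 kept markers 5 lay within 2-fold, among them *Pou3f4* with FPKM values of 14.9 and 13.2. The part of these cells in the fibrillar values was not tested.

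**Figure D2:**
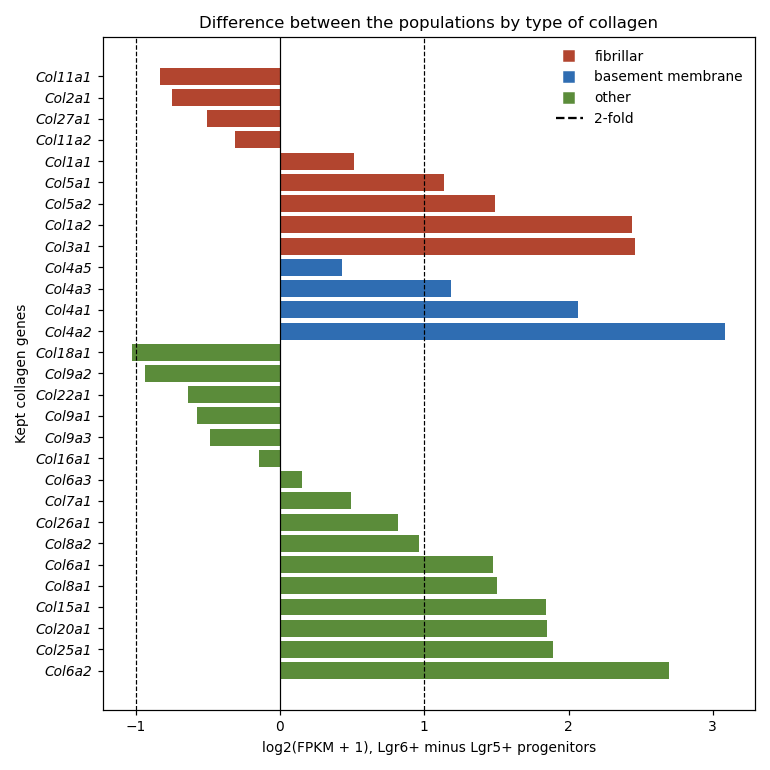
Log2 difference of the 29 kept collagen genes (x axis, Lgr6+ minus Lgr5+ cells on the log2(FPKM + 1) scale), 1 bar per gene, with dashed lines at 2-fold. All 4 kept type IV genes have bars to the right, the fibrillar bars run from -0.83 to 2.46, and *Col18a1* is the 1 bar that passes the line on the left.

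The type IV chains of basement membranes were higher in Lgr6+ cells for each kept gene, and 3 of these 4 were at least 2-fold higher, or 2 of 4 after quantile normalization, where *Col4a3* was at 0.78. Over all kept genes the shares were 18.2% and, after quantile normalization, 14.6%. The shared direction depends in part on the filter. *Col4a3* was kept only through its Lgr6+ value, and *Col4a4*, which had the lower value in Lgr6+ cells, was not kept. Where both populations had to reach an FPKM of 1, 2 of 3 type IV genes were at least 2-fold higher, against 10.9% of all genes. The median log2 difference of the 4 kept genes was 1.63 (range 0.43 to 3.09), against 0.03 for all kept genes. As a sum over the 6 genes, FPKM was 16.7 in Lgr5+ and 78.3 in Lgr6+ cells, a ratio of 4.70. Endothelial markers had sums of FPKM of 19.3 and 104 and Schwann cell and glial markers 74.1 and 262, both cell types that lay down basement membranes. Pericyte markers had sums of 8.36 and 9.96, and supporting cell and sensory epithelium markers 6161 and 4967. The part of these cell types in the type IV values was not tested.

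*Col4a1* and *Col4a2* encode the chains of the type IV network that is found in nearly all basement membranes. They lie side by side on chromosome 8, *Col4a1* from 11198423 to 11312826 and *Col4a2* from 11312829 to 11449287, and their RefSeq starts are 21 bases apart on opposite strands. *Col4a1* had FPKM values of 6.82 in Lgr5+ and 31.8 in Lgr6+ cells, a log2 difference of 2.07. *Col4a2* had FPKM values of 3.39 and 36.3, a log2 difference of 3.09, the largest among the kept collagen genes with a pseudocount of 1. With a pseudocount of 0.1 it was 3.38 and those of *Col6a2*, *Col6a1* and *Col25a1*, whose Lgr5+ values lie near 0, were larger. *Col4a1* was 2.01 times *Col4a2* in Lgr5+ cells and 0.875 times *Col4a2* in Lgr6+ cells, so the higher member of the pair was not the same in both. Since the RefSeq spans of both genes overlap and the use of strand in counting is not given in the sources used here, reads at their starts cannot be assigned with certainty.

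*Col4a3*, *Col4a4* and *Col4a5* encode the chains affected in Alport syndrome. *Col4a3* had FPKM values of 0.401 in Lgr5+ and 2.18 in Lgr6+ cells, a log2 difference of 1.18. Its neighbour *Col4a4*, whose RefSeq span overlaps that of *Col4a3*, had FPKM values of 0.722 and 0.150 and was not kept. *Col4a5* had FPKM values of 5.24 and 7.38, a log2 difference of 0.43. *Col4a6*, which lies head to head with *Col4a5* on the X chromosome, had FPKM values of 0.0752 and 0.429 and was not kept. *Col4a5* was therefore the only 1 of these 4 genes that reached an FPKM of 1 in both.

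Among the 27 other collagens, 16 were kept, 6 were at least 2-fold higher in Lgr6+ cells and 1 in Lgr5+ cells. Over all kept genes these shares were 18.2% and 11.7%. Of the 16 genes, 6 were kept only through their Lgr6+ value. Of the 10 genes that reached an FPKM of 1 in both, 1 was higher in Lgr6+ and 1 in Lgr5+ cells. The shares of all genes were then 10.9% and 9.76%. The median log2 difference was 0.65 for the 16 kept genes and -0.31 for these 10. The classes within this group went different ways. Of the 9 FACIT genes 6 were kept, and 5 of the 6 had the lower value in Lgr6+ cells.

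Type IX collagen coats type II fibrils. *Col9a2*, on chromosome 4 from 121039566 to 121055325, had FPKM values of 851 in Lgr5+ and 444 in Lgr6+ cells, a log2 difference of -0.94. *Col9a1* had FPKM values of 302 and 203, a log2 difference of -0.57. *Col9a3* had FPKM values of 236 and 169, a log2 difference of -0.48, and its RefSeq span overlaps the coding gene *Tcfl5*. The 3 chains of this collagen were thus all lower in Lgr6+ cells by less than 2-fold, and *Col9a2* was 2.82 times *Col9a1* in Lgr5+ and 2.19 times in Lgr6+ cells.

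With types II and XI, the 6 cartilage and tectorial membrane genes had a median log2 difference of -0.66 and ran from -0.94 to -0.31. All 6 had the lower value in Lgr6+ cells under each scaling that was tried, though *Col11a2* was only at -0.05 after scaling to the same total. Summed, they reached an FPKM of 2560 in Lgr5+ and 1518 in Lgr6+ cells, a ratio of 0.593. Genes at these levels also tended to be lower in Lgr6+ cells, since the 2274 genes that reach an FPKM of 50 in at least 1 population had a median log2 difference of -0.21. Of the 6 genes, *Col11a2* with 45.9 and 36.8 lies under this limit of 50. After scaling to the same total, the 6 genes had a median of -0.40 beside 0.28 for all kept genes of any level. No median of the genes that reach 50 was taken after this scaling. The level of *Col2a1* was 15.3 times that of *Col11a1* in Lgr5+ and 16.4 times in Lgr6+ cells, and 3.49 and 3.09 times that of *Col9a1*.

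The remaining FACIT genes were much lower. *Col16a1* had FPKM values of 14.8 in Lgr5+ and 13.3 in Lgr6+ cells, a log2 difference of -0.15 that becomes 0.10 after scaling to the same total. *Col20a1* had FPKM values of 1.39 and 7.62, a log2 difference of 1.85, the only FACIT gene at least 2-fold higher in Lgr6+ cells. *Col22a1*, known from the muscle-tendon junction, had FPKM values of 2.26 and 1.10. *Col12a1*, *Col14a1* and *Col19a1* stayed under an FPKM of 1 in both populations.

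The multiplexins *Col18a1* and *Col15a1* are basement membrane proteins with sugar side chains, and *Col18a1* is the source of the fragment endostatin. They went opposite ways. *Col18a1*, on chromosome 10 from 77052179 to 77166530, had FPKM values of 99.9 in Lgr5+ and 48.6 in Lgr6+ cells. Its log2 difference of -1.02 was the only one among the collagens past 2-fold toward Lgr5+ cells, but it fell short of 2-fold after quantile normalization (-0.93) and after scaling to the same total (-0.77). *Col15a1* had FPKM values of 0.696 and 5.08, a log2 difference of 1.84.

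Type VI collagen forms beaded filaments around connective-tissue, muscle and nerve cells. *Col6a2* lies on chromosome 10 from 76595756 to 76623404. Its FPKM was listed at 0 in Lgr5+ cells and was 5.47 in Lgr6+ cells, about 606 steps. *Col6a1* had FPKM values of 0.0342 in Lgr5+ cells, which is about 1.04 steps, and 1.88 in Lgr6+ cells, about 182 steps. At this depth a ratio for *Col6a1* has little meaning and none is given for *Col6a2*. *Col6a3* had FPKM values of 1.90 and 2.22, a log2 difference of 0.15, so the genes of this collagen were not all further apart than 2-fold. *Col6a4* had FPKM values of 0.971 and 0.191, and *Col6a5* had FPKM values of 0 and 0.00447, about 1.01 steps.

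Of the short-chain network collagens, *Col8a1*, known from the walls of vessels and from the cornea, had FPKM values of 0.173 in Lgr5+ and 2.33 in Lgr6+ cells, and the Lgr5+ value is about 6.58 steps. *Col8a2* had FPKM values of 0.738 and 2.39, a log2 difference of 0.96. Of the transmembrane collagens only *Col25a1* was kept, with FPKM values of 0.163, about 8.23 steps, and 3.32, a log2 difference of 1.89. *Col13a1* and *Col23a1* stayed under an FPKM of 1. *Col7a1*, the collagen of anchoring fibrils under stratified epithelia, had FPKM values of 5.74 and 8.47, and *Col26a1* had FPKM values of 4.49 and 8.67, both within 2-fold. *Col28a1* was listed at 0 in Lgr5+ cells and at 0.0121 in Lgr6+ cells, about 1.22 steps.

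**Figure D3:**
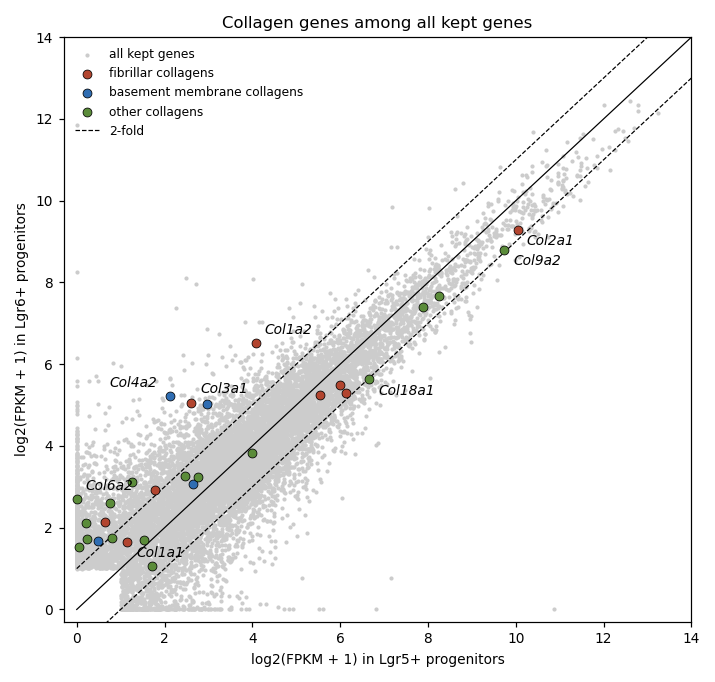
Each kept gene in grey by log2(FPKM + 1) in Lgr5+ (x axis) and Lgr6+ cells (y axis), with collagen genes coloured by class, the solid line at equal values and dashed lines at 2-fold. *Col2a1*, with 1055 and 627, and *Col9a2* lie below the solid line at high levels, and *Col1a2*, *Col3a1*, *Col4a1* and *Col4a2* lie above the upper dashed line.

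Long transcripts are common among these genes, as the longest coding transcript reached 5 kb for 21 of the 28 kept collagen genes that could be matched. Among all kept genes with such transcripts, 12.6% were called toward Lgr6+ and 8.22% toward Lgr5+ cells, both less than over all kept genes. By GC content, 18 of the 28 genes were at 55% or more, and 18.6% of all kept genes in that range were called toward Lgr6+ cells.

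Genes that make, secrete and bind collagen were also compared. Over 6 lists with 58 measured genes, 46 were kept, 8 were at least 2-fold higher in Lgr6+ cells, 4 in Lgr5+ cells, and the median log2 difference was -0.11. Set against the shares of all kept genes, 18.2% and 11.7%, these counts show nothing particular to the lists. Enzymes and chaperones that modify and fold the chains gave 2 genes of 16 in each direction and a median of -0.21. *Ppib*, a prolyl isomerase and the highest of this list, had FPKM values of 500 in Lgr5+ and 370 in Lgr6+ cells. *Plod3*, a lysyl hydroxylase, had FPKM values of 53.3 and 17.5, a log2 difference of -1.55. *Leprel4* (*P3h4*), of the prolyl 3-hydroxylase family, had FPKM values of 57.0 and 25.1, a log2 difference of -1.15. On the other side stood *P4ha1*, a prolyl 4-hydroxylase subunit, with FPKM values of 4.41 and 10.7, and *Glt25d1* (*Colgalt1*), which adds galactose to hydroxylysine, with FPKM values of 8.39 and 22.6.

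Genes of secretion gave 1 of 5 kept genes higher in Lgr6+ cells and none in Lgr5+ cells, with a median of 0.76. The shares of all kept genes were 18.2% and 11.7%. The highest were *Ctage5* in Lgr5+ cells, at an FPKM of 31.1, and *Mia3*, which loads large cargo at the exit sites, in Lgr6+ cells, at an FPKM of 20.9. For propeptide cleavage 1 of 5 kept genes was called in each direction, with a median of -0.32. *Adamts2*, which removes the amino-terminal propeptide of fibrillar collagens, had FPKM values of 22.5 in Lgr5+ and 5.41 in Lgr6+ cells, a log2 difference of -1.88. *Pcolce*, which enhances removal of the carboxy-terminal propeptide, had FPKM values of 2.17 and 18.7, a log2 difference of 2.63. Its relative *Pcolce2* was the highest of this list, with FPKM values of 51.5 and 41.1.

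For cross-linking, *Lox* was the 1 gene of 4 at least 2-fold higher in Lgr6+ cells, with an FPKM of 13.5 in Lgr5+ and 30.1 in Lgr6+ cells, and the median was -0.20. *Loxl1*, the highest of the list in Lgr5+ cells, had FPKM values of 21.4 and 17.7. Among fibril-binding proteins 2 of 10 genes were higher in Lgr6+ and 1 in Lgr5+ cells, with a median of 0.07. *Epyc*, a small leucine-rich proteoglycan, had FPKM values of 29.4 and 141, a log2 difference of 2.22, and *Bgn* had FPKM values of 6.47 and 16.4. *Sparc*, which binds collagen, was the highest, with FPKM values of 1078 and 854. Of the 6 kept collagen receptors 1 was called, toward Lgr6+ cells, with a median of 0.47. The counts of these lists stand beside 18.2% of all kept genes toward Lgr6+ and 11.7% toward Lgr5+ cells. *Ddr1*, a receptor kinase of epithelia, had FPKM values of 44.2 and 24.9, and *Itgb1* had FPKM values of 20.8 and 32.3.

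**Figure D4:**
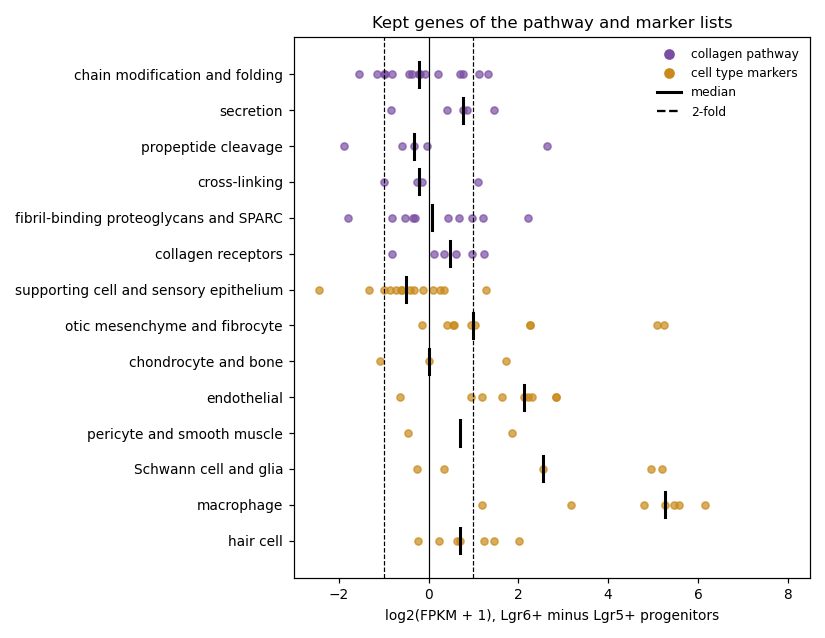
Log2 difference (x axis, Lgr6+ minus Lgr5+ cells) of kept genes in 6 lists of the collagen pathway and 8 lists of cell type markers, 1 point per gene, with black bars at the medians and dashed lines at 2-fold. The pathway medians lie between -0.32 and 0.76, and those of the endothelial, Schwann cell and macrophage lists lie at 2.12, 2.55 and 5.27. All 7 kept macrophage genes were kept through their Lgr6+ value alone, so they lie to the right by the filter.

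Markers of several other cell types had higher values in Lgr6+ cells, as did *Col1a2*, *Col3a1*, *Col4a1*, *Col4a2*, *Col6a1* and *Col6a2*. Of 9 endothelial genes 7 were at least 2-fold higher in Lgr6+ cells, against 18.2% of all kept genes, and none was lower by that much. Of the 9 genes, 4 were kept only through their Lgr6+ value. *Tie1* had the lower value in Lgr6+ cells, with FPKM values of 2.09 and 0.999. The FPKM of the list summed to 19.3 in Lgr5+ and 104 in Lgr6+ cells. *Emcn* was the highest, with FPKM values of 5.93 and 29.1, and *Kdr* was listed at 0 in Lgr5+ cells. Of 12 genes of otic mesenchyme and fibrocytes 10 were kept. Past 2-fold toward Lgr6+ cells were 5 of them, beside 18.2% of all kept genes. Without their Lgr6+ level, 2 of the 10 (*Prrx1* and *Prrx2*) would have been left out by the filter. *Prrx2*, with FPKM values of 0.410 and 47.3, is among the 5. FPKM over this list summed to 66.4 and 451, of which *Otos* alone gave 5.60 and 248. *Pou3f4*, the highest of that list in Lgr5+ cells, had FPKM values of 14.9 and 13.2, and *Dpt* was at 0 in both.

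Of 7 Schwann cell and glial genes 5 were kept, 1 of them only through its Lgr6+ value. Of these, 3 were at least 2-fold higher in Lgr6+ cells, against 18.2% of all kept genes. The list had sums of FPKM of 74.1 and 262. *Sox10* led in Lgr5+ cells with 39.5 against 50.5, *Mbp* led in Lgr6+ cells with 67.4 against 10.7, and *Foxd3* was listed at 0 there. Of 8 macrophage genes 7 were kept, all of them through their Lgr6+ value alone, so their direction was set by the filter. The sums of FPKM over the list were 1.47 and 256. *C1qb*, *C1qc*, *Tyrobp*, *Csf1r* and *Aif1* were listed at 0 in Lgr5+ cells, and *C1qb* reached 69.9 in Lgr6+ cells. Of 7 pericyte genes 2 were kept and 1 was called toward Lgr6+ cells, with sums of FPKM of 8.36 and 9.96. *Pdgfrb* was the highest with 8.25 and 5.69, *Rgs5*, *Cspg4* and *Kcnj8* were at 0 in Lgr5+ cells, and *Acta2* was at 0 in both. The part of these cell types in the collagen values was not tested.

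The cartilage and supporting cell lists stood beside the types II, IX and XI genes. Of 11 measured chondrocyte and bone genes 3 were kept, *Acan* was listed at 0 in Lgr5+ cells and at 0.180 in Lgr6+ cells, and *Hapln1* and *Bglap* were at 0 in both. The list's sum of FPKM of 447 and 253 was mostly *Lect1*, with 410 and 192, while *Matn1* had FPKM values of 8.74 and 31.2. Of 14 supporting cell and sensory epithelium genes 10 had the lower value in Lgr6+ cells, 2 of them by at least 2-fold and 1 in the other direction, with a median of -0.49. Their sums of FPKM were 6161 and 4967, with *S100a1* highest at 2959 and 3177, and the tectorial membrane genes *Tecta* and *Tectb* had FPKM values of 406 and 1347 in Lgr5+ and 271 and 813 in Lgr6+ cells. Hair cell genes were higher in Lgr6+ cells for 6 of 7, 3 of them by at least 2-fold, with sums of FPKM of 708 and 911 and *Pvalb* highest at 477 and 408. Over all kept genes the shares past 2-fold were 18.2% toward Lgr6+ and 11.7% toward Lgr5+ cells. Whether the lower level of the 6 cartilage-type collagens goes with that of the epithelial genes or with the make-up of the sorted cells was not tested.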

How the data were processed

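RNA-Seq of 4 libraries was analysed from 1 deposited table. Reads were trimmed by the authors with Trimmomatic, mapped with TopHat and quantified with Cufflinks, whose versions are not given in the sources used here. Each FPKM value deposited by the authors is 1 combined value of a population. Fold change, *p*-value and *q*-value columns hold the authors' own comparison and were not used. The methods name mm9 and the labels mm10. All 44 loci overlapped their gene in RefSeq GRCm38.p6, and positions are given on that build with starts counted from 1.

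Genes that reached an FPKM of 1 in either population were kept, a pseudocount of 1 was added and calls were made at 2-fold, with no test. The table holds no counts, so the depth behind each combined value is not known from it. Steps of low FPKM were read from 7864 genes with 1 coding transcript in GENCODE vM1, using transcript length less 200 bases. Named were all kept fibrillar and type IV genes, other collagens that were called or reached an FPKM of 10, and from each list the highest genes and up to 4 called genes reaching 10. Other genes were named after their values were seen. Alternatives were a pseudocount of 0.1, other minimum values, quantile and upper-quartile normalization, a ratio without a pseudocount and a 1.5-fold threshold. Members and lists were chosen with earlier results of these data known. The code of the fold rule was run on Lgr5+ values multiplied by known factors without noise. This checks the arithmetic only and says nothing about low values or the spread between libraries. Python 3.11.15, numpy 2.4.6, pandas 2.3.3 and matplotlib 3.10.9 were used.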

Additional observations from a re-analysis of the deposited data

How the results depend on the processing

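No paired analysis was possible because the deposited table holds 1 combined value per population, and for the same reason no replicate could be left out in turn. The number of collagen genes at least 2-fold higher in Lgr6+ cells was 13 as reported, 11 after quantile normalization, where *Col4a3* and *Col5a1* fell short of 2-fold, 8 at a minimum FPKM of 5, and 6 when both populations had to reach 1. The number higher in Lgr5+ cells was 1 as reported, 0 after quantile normalization and after scaling to the same total, 2 for the ratio without a pseudocount and 5 at 1.5-fold. The fibrillar median went from 0.51 to -0.31 at a minimum FPKM of 5, where 7 genes remained. The basement membrane median went from 1.63 to 0.81 (0.805) with no filter on low values and to 2.33 for the ratio without a pseudocount. The median of the other collagens went from 0.65 to -0.31 (-0.314) when both populations had to reach an FPKM of 1. Asking this of both populations and scaling to the same total were chosen after seeing the data. With a tolerance of 1.5 times, 163 of 178 values of the 24 named collagen genes stayed close to the reported one and 15 moved, among them *Col6a1*, *Col6a2*, *Col25a1* and *Col8a1*, whose Lgr5+ values lie near 0, and the sign turned only for *Col16a1*, to 0.10 after scaling to the same total. An FPKM near 0 rests on few steps, so these genes limit how far the size of a difference can be read.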
